A study of Mus musculus with 25 samples.

Results

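The 9 genes described here mark the erythroid lineage, the line of blood cells that ends in the red cell. They are the transcription factor genes *Gata1* and *Klf1*, the erythropoietin receptor gene *Epor*, the adult alpha globin genes *Hba-a1* and *Hba-a2*, the adult beta globin genes *Hbb-bs* and *Hbb-bt*, and the carbonic anhydrase genes *Car1* and *Car2*. They were taken by symbol from the 23116 genes of the deposited RNA-seq table, and all 9 were found. RNA had been sequenced from HSLAM cells (LSK+ CD150+ CD48−), a bone marrow population rich in hematopoietic stem cells, of adult male C57BL/6 mice aged 8 to 12 weeks. Mice of one group carried *Znf143 f/f* without the Cre transgene (*Rosa26ERT2-Cre-*) and gave the 3 libraries WT1 to WT3, called *Znf143 f/f* here. Mice of the other carried *Znf143 f/f* with *Rosa26ERT2-Cre+* and gave the 3 libraries KO1 to KO3, called *Znf143* −/− here. Both groups carry loxP sites around exon 1 of both *Znf143* alleles and both were given tamoxifen, at the study's middle dosage, over 10 days. All were littermates, described by the study as 3 pairs, and nothing says which libraries form a pair. The groups thus differ in Cre, which *Rosa26* drives in nearly all cells of the body, so that deletion need not be limited to blood cells. Sorting of HSLAM cells left out cells stained for lineage markers, among them the erythroid marker Ter119, and red cells of the marrow had been lysed.

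The red cell lineage arises from stem cells through megakaryocyte-erythroid progenitors. GATA1 and KLF1 are DNA-binding factors that switch on globin, heme and membrane genes in that lineage, and the erythropoietin receptor carries the survival signal of erythropoietin to erythroid progenitors. Adult hemoglobin holds a pair of alpha and a pair of beta chains, and carbonic anhydrases of the red cell interconvert carbon dioxide and bicarbonate. None of the 9 genes is specific to erythroid cells in every stage: *Gata1* is also used by megakaryocytes, mast cells and eosinophils, and *Car2* is known to be high in stem and progenitor cells.

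The labels of the samples call the deleted genotype CTCF KO, whereas the study describes a deletion of *Znf143*, listed under its mouse symbol *Zfp143*. FPKM, fragments scaled to gene length and library total, of *Zfp143* was 3.06, 4.03 and 3.63 in WT1 to WT3 and 0.145, 0.303 and 0.326 in KO1 to KO3. The FPKM of *Ctcf* lay at 29.9 ± 0.275 (SD, n = 3) and 29.7 ± 2.27 (SD, n = 3), so the libraries were grouped as *Znf143 f/f* and *Znf143* −/−. Fragments on genes numbered 38643255 to 57895793 in a library. KO3 carries the FPKM divisor of KO2, which is too small for it by a ratio of 1.20, and over the 19296 genes tested the log2 fold change had a median of 0.11. With FPKM rescaled by size factors (median of ratios) that median was 0.0075. Libraries of a group were not equally far apart. Over genes with 20 to 200 fragments in a pair of libraries, the variance between WT1 and WT3 was 1.70 times the sampling variance and that between KO2 and KO3 was 1.68 times, against 6.59 to 12.2 times in the other 13 pairs. Whether these close pairs come from separate mice was not tested. All 6 libraries were kept, results were also computed with WT1 and WT3 averaged and KO2 and KO3 averaged (2 against 2), and p-values over 3 against 3 measure only the spread between these libraries, which may be technical. Stem cell markers were present in all libraries, with *Procr* at an FPKM of 43.7 to 51.8. Of 8 such markers tested, 4 lay toward lower values in *Znf143* −/− libraries. Only 1, which was higher, passed an adjusted p of 0.05 in limma, as did 4.32% of all genes. After rescaling, *Mecom* passed too, as lower (adjusted p = 0.0208 from limma), where 6.0% of all genes passed. Its FPKM as deposited was 8.98, 8.41 and 9.27 in WT1 to WT3 and 6.30, 6.11 and 7.30 in KO1 to KO3. *Ly6a* (Sca-1, a gate marker) rose from 218–287 to 561–664 FPKM (adjusted p = 0.00379 from limma). *Cd48*, against which the cells were sorted, was at 9.50 to 10.1 in *Znf143 f/f* and at 18.2 to 23.8 in *Znf143* −/− libraries (adjusted p = 0.00685 from limma).

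Promoters of the genes are shown first, because the globin pairs share most of their sequence and the values of each pair depend on how reads could be told apart. RefSeq windows of 250 bases before to 50 bases after the transcription start on GRCm38.p6 were found for 7 of the 9 genes, and none was found for *Car1* and *Car2*. The parts before the start are printed 5′ to 3′ in the direction of the gene, with capitals at every match, on either strand, of the GATA motif (AGATAA or TGATAA), the CACCC box (CACCC), the CCAAT box (CCAAT) and the TATA box (TATAA). The *Hbb-bs* stretch lies at chr7:103827929-103828148 and the *Hbb-bt* stretch at chr7:103813924-103814143, both on the minus strand. They are shown because these genes moved differently.
Hbb-bs: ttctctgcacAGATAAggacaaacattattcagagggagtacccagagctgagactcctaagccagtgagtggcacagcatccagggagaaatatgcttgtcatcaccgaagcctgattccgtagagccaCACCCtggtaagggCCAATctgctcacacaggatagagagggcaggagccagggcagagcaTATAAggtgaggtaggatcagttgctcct
Hbb-bt: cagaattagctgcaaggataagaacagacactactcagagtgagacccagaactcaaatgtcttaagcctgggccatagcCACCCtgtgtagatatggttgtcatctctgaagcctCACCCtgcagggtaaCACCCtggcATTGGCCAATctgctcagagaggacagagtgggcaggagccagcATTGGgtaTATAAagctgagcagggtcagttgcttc
Both hold a CACCC box and a CCAAT box at nearly the same distance from the start, and a TATA box just upstream of it. *Hbb-bt* has 3 CACCC boxes and *Hbb-bs* has 1, while the AGATAA of *Hbb-bs*, from 210 to 205 bases before the start, has no match in *Hbb-bt*. The long run of capitals in *Hbb-bt* joins 2 CCAAT matches on opposite strands. Over 252 aligned columns before the start, 182 bases (72.2%) were the same in both.

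The alpha globin stretch of *Hba-a1* lies at chr11:32283472-32283671 on the plus strand.
Hba-a1: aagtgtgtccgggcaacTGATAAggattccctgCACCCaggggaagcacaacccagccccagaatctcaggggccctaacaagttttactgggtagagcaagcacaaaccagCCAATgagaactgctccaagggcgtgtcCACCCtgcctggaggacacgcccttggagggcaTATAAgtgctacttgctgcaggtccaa
The *Hba-a2* window, 3 bases apart in register, was identical over all 247 aligned bases before the start, so the *Hba-a1* stretch stands for both. Each holds 1 TGATAA, 2 CACCC boxes, 1 CCAAT box and 1 TATA box.

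The regulator genes are shown to compare their motifs with those of the globins. *Gata1* lies at chrX:7967911-7968060 (minus strand), *Klf1* at chr8:84901832-84901981 (plus strand) and *Epor* at chr9:21963577-21963736 (minus strand).
Gata1: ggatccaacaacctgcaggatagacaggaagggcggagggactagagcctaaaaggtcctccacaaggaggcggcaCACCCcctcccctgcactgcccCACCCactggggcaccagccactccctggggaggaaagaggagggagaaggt
Klf1: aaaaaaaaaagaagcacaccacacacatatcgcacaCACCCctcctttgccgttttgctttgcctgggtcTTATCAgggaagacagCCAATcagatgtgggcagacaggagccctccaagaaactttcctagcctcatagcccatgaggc
Epor: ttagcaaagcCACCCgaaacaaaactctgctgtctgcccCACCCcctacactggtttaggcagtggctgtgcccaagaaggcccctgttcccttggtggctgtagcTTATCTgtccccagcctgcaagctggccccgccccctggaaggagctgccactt
*Klf1* and *Epor* each hold 1 GATA motif on the opposite strand, 80 to 75 and 54 to 49 bases before the start. The *Gata1* window holds 2 CACCC boxes and none of the other 3 motifs. Of all 32851 RefSeq promoter windows of the same length, 18.6% hold a GATA motif as spelled here, 57.5% a CACCC box, 37.4% a CCAAT box and 24.9% a TATA box. A core spelled CCCANNATG, part of the motif known for ZNF143, was in 5.01% of all windows and in 0 of these 7. A match or its absence describes letters in these windows only. RefSeq starts differ from the ends of the GENCODE genes given below. By the latter, the whole *Gata1* stretch lies inside the gene, as do parts of the *Klf1*, *Hba-a1*, *Hbb-bs* and *Hbb-bt* stretches. Other starts of these genes were not searched.

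The question of the comparison was how erythroid genes of HSLAM cells stand after tamoxifen-induced deletion of *Znf143*. *Gata1* rose and *Hbb-bt* fell in *Znf143* −/− cells, and these were the only genes of the 9 past an adjusted p of 0.05 in limma over all 6 libraries as deposited. *Klf1* and *Epor* lay higher, and *Hba-a1*, *Car1* and *Car2* lay lower, in each *Znf143* −/− library than in any *Znf143 f/f* library, without passing the test. *Hba-a2* and *Hbb-bs* overlapped. Of 19296 genes tested, 4.32% were called, 2.74% as higher and 1.58% as lower, and the groups did not overlap for 25.1%, against 7 of the 9 genes. The order of mean FPKM in *Znf143 f/f* libraries was *Car2* (1001.1), *Car1* (55.1), *Hbb-bs* (27.04), *Gata1* (20.8), *Klf1* (13.4), *Epor* (11.7), *Hba-a1* (11.4), *Hba-a2* (2.38) and *Hbb-bt* (2.12). Neighbours from *Car1* to *Gata1*, from *Klf1* to *Hba-a1*, and *Hba-a2* with *Hbb-bt* overlapped in their library ranges. In bulk RNA, fewer cells of a type and less RNA per cell cannot be told apart.

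**Figure D1:**
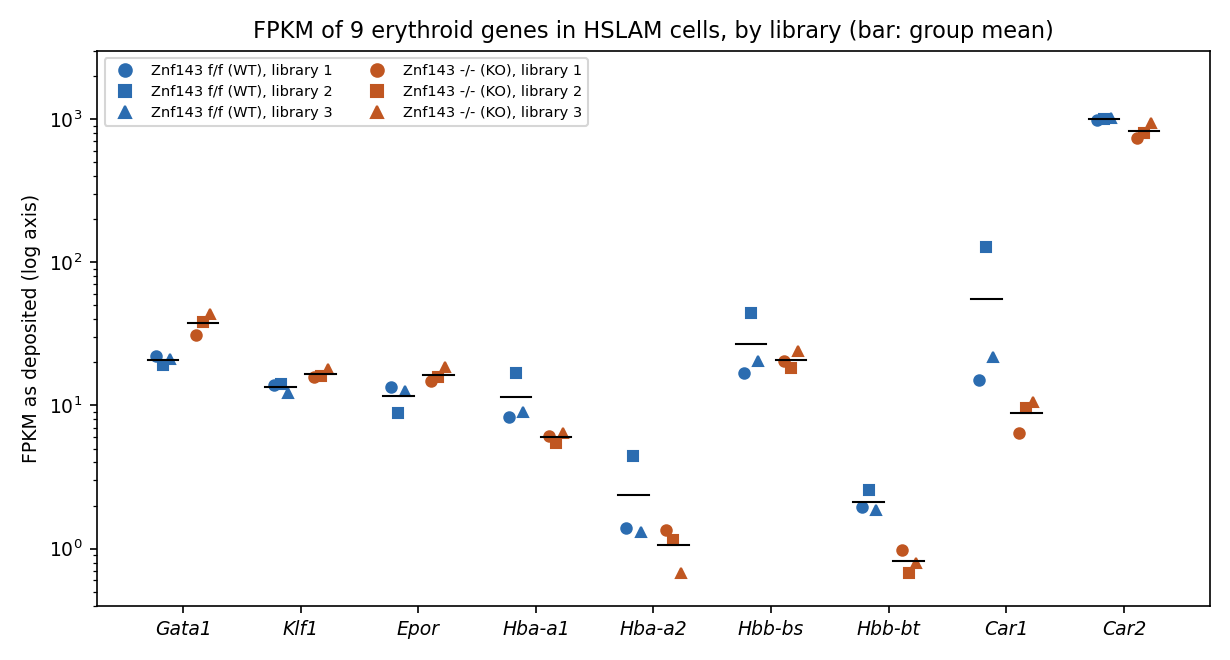
FPKM of the 9 genes (log axis) in the 3 *Znf143 f/f* libraries (blue) and the 3 *Znf143* −/− libraries (orange), with circles, squares and triangles for replicates 1, 2 and 3 and a bar at each group mean. *Gata1* is higher in every *Znf143* −/− library, *Hbb-bt* is lower in every one, and WT2 (blue square) stands above the other libraries at *Car1* (128.7) and at 4 globin genes.

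*Gata1*, the master regulator of erythroid and megakaryocytic genes (ENSMUSG00000031162.14, chromosome X, 7959260 to 7978071 on GRCm38), had an FPKM of 22.2, 19.2 and 21.0 in WT1 to WT3 and of 31.3, 38.0 and 43.7 in KO1 to KO3. All *Znf143* −/− libraries were above all *Znf143 f/f* libraries, and WT2 was the lowest. *Gata1* rose from a mean of 20.8 ± 1.53 to one of 37.6 ± 6.19 (SD, 3 libraries in each group). The log2 fold change was 0.84 (SE 0.166, 95% interval 0.47 to 1.22, adjusted p = 0.0260 from limma). With rescaled FPKM the value was 0.73 (adjusted p = 0.00569 from limma). The call was lost (limma) without WT1 (adjusted p = 0.0653), without WT3 (0.103), without KO2 (0.110) and without KO3 (0.0953), without the variance trend (0.0638), and in the 2 against 2 fit (log2 fold change 0.81, adjusted p = 0.293). With the replicate number as a block it was lost too (adjusted p = 0.0506, and 0.0692 with rescaling, from limma). The two-sided exact permutation test gave p = 0.1, the smallest that 3 against 3 allows. Of 19 alternative settings, 10 kept the call. Megakaryocyte markers summed to an FPKM of 623 to 759 in *Znf143 f/f* and 829 to 1014 in *Znf143* −/− libraries. That distance rests on *Pf4*, without which the sums overlapped (265 to 284 and 250 to 367). Of these markers, 1 of 9 tested genes was called (*Gp5*, log2 fold change 0.74, adjusted p = 0.0469 from limma). Mast cell and basophil markers summed to 3.19 to 4.80 and 3.79 to 26.1, and were high in KO2 and KO3. Their 6 tested genes had a median log2 fold change of 1.26, none was lower, and none passed the test in limma (3 at an unadjusted p under 0.05). Their part in the *Gata1* result was not tested.

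*Klf1*, the erythroid factor that binds CACCC boxes (ENSMUSG00000054191.8, chromosome 8, 84901928 to 84905291), had an FPKM of 13.9, 14.03 and 12.3 in WT1 to WT3 and of 15.9, 16.0 and 18.1 in KO1 to KO3. As deposited, the groups did not overlap, but after rescaling they did. Its log2 fold change was 0.31 (SE 0.150, 95% interval -0.03 to 0.65, adjusted p = 0.301 from limma). The ratio of *Gata1* to *Klf1* FPKM within a library, in which the divisor of a library cancels, was 1.603, 1.37 and 1.71 in WT1 to WT3 and 1.97, 2.38 and 2.41 in KO1 to KO3. *Gata1* was thus higher relative to *Klf1* in every *Znf143* −/− library (difference of log2 ratios 0.53, p = 0.1 in a two-sided exact permutation test, which cannot go lower).

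*Epor* (ENSMUSG00000006235.6, chromosome 9, 21958897 to 21963506) had an FPKM of 13.5, 8.87 and 12.7 in WT1 to WT3 and of 14.8, 15.8 and 18.5 in KO1 to KO3. WT2 was the lowest library, and the groups did not overlap. The log2 fold change of 0.50 (SE 0.197, adjusted p = 0.212 from limma) became 0.31 (adjusted p = 0.380 from limma) without WT2. None of 19 alternative settings took *Epor* or *Klf1* past the threshold.

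**Figure D2:**
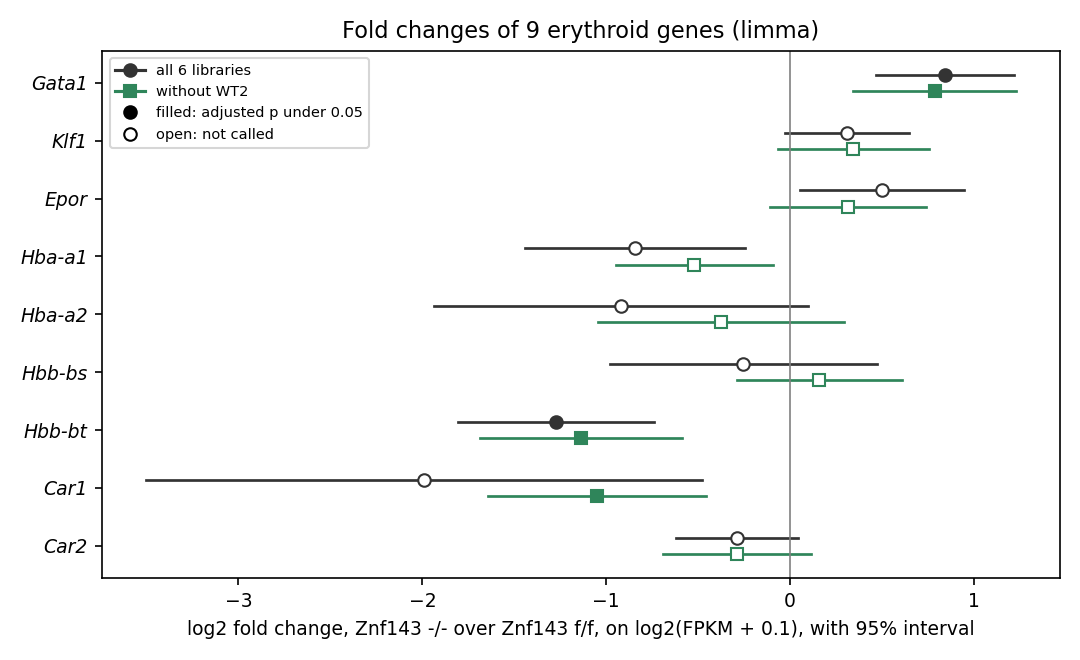
Log2 fold changes of the 9 genes (*Znf143* −/− over *Znf143 f/f*, on log2(FPKM + 0.1)) with 95% intervals from limma, with all 6 libraries (black circles) and without WT2 (green squares), filled where the adjusted p was under 0.05. *Gata1* and *Hbb-bt* are filled in both, *Car1* moves from -1.99 to -1.05 and is filled only without WT2, and *Hbb-bs* changes sign.

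Globin FPKM as deposited was low in all libraries. Whether fragments in stretches shared within a globin pair were counted is not stated. These levels, and the place of the globins in the order of the 9 genes, may therefore be too low. The 4 globin genes summed to an FPKM of 28.5, 67.8 and 32.6 in WT1 to WT3 and of 28.8, 25.5 and 31.9 in KO1 to KO3. WT2 was the highest, and the other 5 libraries lay close together. *Hba-a1* (ENSMUSG00000069919.7, chromosome 11, 32283511 to 32284465) had an FPKM of 8.36, 16.9 and 8.97 in WT1 to WT3 and of 6.11, 5.47 and 6.47 in KO1 to KO3. All *Znf143* −/− libraries were below all *Znf143 f/f* libraries, and WT2 was 1.95 times the mean of WT1 and WT3. On the log2 scale the difference was -0.84 (SE 0.264, adjusted p = 0.122 from limma), and -0.52 (adjusted p = 0.146 from limma) without WT2. *Hba-a2* (ENSMUSG00000069917.7, chromosome 11, 32296489 to 32297298) had an FPKM of 1.40, 4.43 and 1.32 and of 1.35, 1.147 and 0.682 in the same order. Apart from WT2 and KO3 the libraries lay close together. Its log2 fold change was -0.92 (SE 0.450, adjusted p = 0.309 from limma), from 22 to 160 fragments per library, and -0.37 (adjusted p = 0.523 from limma) without WT2.

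Reads of the alpha genes could be told apart only in part. Their coding sequences, of 426 bases each, differ at 1 base, and 62.0% of all 76-base windows of the *Hba-a1* transcript stand also in that of *Hba-a2*. The split between *Hba-a1* and *Hba-a2* is therefore uncertain, and their FPKM ratio overlapped between groups, at 5.98, 3.82 and 6.82 against 4.51, 4.77 and 9.48 (two-sided exact permutation test, p = 0.8).

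*Hbb-bs* (ENSMUSG00000052305.6, chromosome 7, 103826534 to 103828096), an adult beta globin gene, had an FPKM of 16.8, 43.9 and 20.4 in WT1 to WT3 and of 20.3, 18.2 and 23.9 in KO1 to KO3. Only WT2 stood apart, at 2.36 times the mean of WT1 and WT3. Its log2 fold change of -0.25 (SE 0.321, 95% interval -0.98 to 0.47, adjusted p = 0.712 from limma) turned to 0.16 (SE 0.199, adjusted p = 0.705 from limma) without WT2.

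*Hbb-bt* (ENSMUSG00000073940.3, chromosome 7, 103812524 to 103813996), its neighbour in the beta globin cluster, behaved differently. Its FPKM was 1.95, 2.55 and 1.86 in WT1 to WT3 and 0.986, 0.676 and 0.794 in KO1 to KO3, from 53, 97 and 58 and from 33, 23 and 27 fragments. WT2 was only 1.34 times the mean of WT1 and WT3, and no *Znf143* −/− library reached the lowest *Znf143 f/f* library. *Hbb-bt* fell from a mean of 2.12 ± 0.377 to one of 0.819 ± 0.157 (SD, 3 libraries in each group). The log2 fold change was -1.27 (SE 0.236, 95% interval -1.81 to -0.74, adjusted p = 0.02005 from limma). Without WT2 it was -1.14 (adjusted p = 0.0244 from limma). The call was lost (limma) without WT1 (adjusted p = 0.0507), without WT3 (0.0578), without KO2 (0.0972) and without KO3 (0.106), and in the 2 against 2 fit (log2 fold change -1.28, adjusted p = 0.239).

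The difference between the beta globin genes was tested by their ratio within each library. *Hbb-bs* was 8.60, 17.2 and 11.0 times *Hbb-bt* in WT1 to WT3, and 20.6, 26.9 and 30.1 times in KO1 to KO3. The groups did not overlap, and the mean log2 ratio was higher by 1.12 in *Znf143* −/− libraries and by 1.39 without WT2 (two-sided exact permutation test over 6 libraries, p = 0.1, the smallest possible). Summed beta over summed alpha globin FPKM was 1.92, 2.17 and 2.16 against 2.86, 2.85 and 3.46, also with no overlap (p = 0.1, two-sided exact permutation test). In this ratio WT2 and WT3 were nearly equal, although the globin level of WT2 was the highest. Coding sequences of the beta genes, of 441 bases each, differ at 1 base, and 56.5% of 76-base windows of the *Hbb-bt* transcript stand also in that of *Hbb-bs*, so fragments in shared stretches cannot be assigned to one of them. The ratio of *Hbb-bs* to *Hbb-bt* rests on few *Hbb-bt* fragments, whereas most of the beta sum is *Hbb-bs*. Values of both ratios in the 2 against 2 view follow from the same libraries, where an exact permutation test cannot go below p = 0.333.

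**Figure D3:**
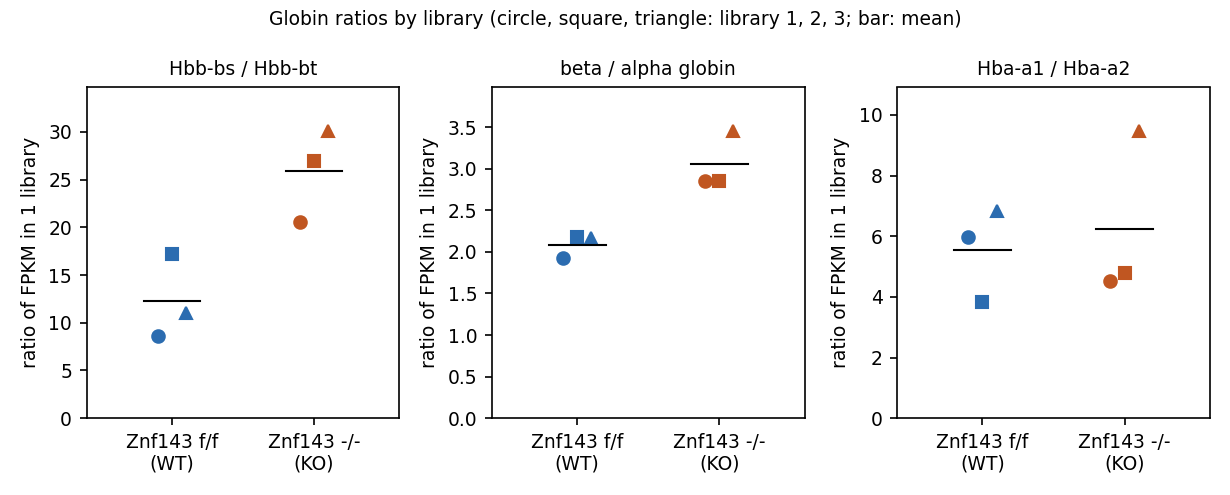
Ratios of globin FPKM within each library, *Hbb-bs* over *Hbb-bt* (left), summed beta over summed alpha globin (middle) and *Hba-a1* over *Hba-a2* (right), for *Znf143 f/f* (blue) and *Znf143* −/− (orange) libraries with bars at the means. The first 2 ratios are higher in every *Znf143* −/− library (20.6 to 30.1 against 8.60 to 17.2, and 2.85 to 3.46 against 1.92 to 2.17), and the third overlaps.

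*Car1* and *Car2* lie on chromosome 3, at 14766216 to 14808368 and at 14886273 to 14900770. *Car1* (ENSMUSG00000027556.15), a red cell carbonic anhydrase switched on in early erythroid progenitors, had an FPKM of 15.0, 128.7 and 21.7 in WT1 to WT3 and of 6.41, 9.56 and 10.6 in KO1 to KO3. WT2 was 7.02 times the mean of WT1 and WT3, yet WT1 and WT3 too were above all *Znf143* −/− libraries. *Car1* had a log2 fold change of -1.99 (SE 0.668, 95% interval -3.50 to -0.48, adjusted p = 0.147 from limma). Without WT2 it shrank to -1.05 (SE 0.263) and passed the test (adjusted p = 0.0451 from limma), where 7.25% of all genes were called. Without WT1 it was -2.60 and also passed (adjusted p = 0.0321 from limma). In the 2 against 2 fit it was -2.58 (adjusted p = 0.283 from limma), where 0.451% of all genes and 0 of the 9 were called. The mean of *Znf143* −/− libraries was 16.1% of that of all *Znf143 f/f* libraries and 48.3% of that of WT1 and WT3. A processed pseudogene, *Gm16399*, lies inside *Car1* on the same strand, so fragments there could belong to either.

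*Car2* (ENSMUSG00000027562.12), the widespread cytosolic carbonic anhydrase, was among the 95 most abundant genes of every library. Its FPKM was 992, 999 and 1012 in WT1 to WT3 and 735, 797 and 942 in KO1 to KO3, and the groups did not overlap. WT2 did not stand apart here. *Car2* had a log2 fold change of -0.29 (SE 0.147, 95% interval -0.62 to 0.05, adjusted p = 0.332 from limma), -0.40 after rescaling (adjusted p = 0.0995 from limma), where 6.0% of all genes and 2 of the 9 were called. With limma's voom on recovered fragments it was -0.40 and passed (adjusted p = 0.0363). *Car2* exceeded *Car1* by 66.1, 7.76 and 46.7 times in WT1 to WT3 and by 114.6, 83.4 and 88.8 times in KO1 to KO3. Of 14 further carbonic anhydrase genes, 9 were listed, none was called by limma (3 at an unadjusted p under 0.05, against 19.1% of all genes tested), and their highest mean FPKM was 7.15.

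The 9 genes were set beside 6 wider lists of erythroid genes. Of 66 genes listed, 59 were in the table and 54 were tested, of which 2 were called higher, 2 lower and 10 had an unadjusted p under 0.05, as had 19.1% of all genes tested. Their median log2 fold change was -0.03, against 0.11 for all genes tested, and -0.29 for the 9 genes. The erythroid transcription list, with *Lmo2* and *Nfe2* as its most abundant genes, had 0 of 15 called by limma as deposited (0 at an unadjusted p under 0.05). Toward lower values lay 11 of 15 (median -0.15), whereas 62.0% of all genes tested lay toward higher values. This changed with rescaling, where 1 of the 15 was called lower by limma and the median was -0.26. That gene was *Sox6*. *Gfi1b*, *Zfpm1*, *Tal1*, *Ldb1*, *Zbtb7a*, *Foxo3*, *Gata2* and *Klf3* were then also lower at an unadjusted p under 0.05 (limma). That threshold was passed by 4668 of all 19296 genes in either direction. *Nfe2*, *Lmo2*, *Lyl1*, *Bcl11a*, *Ikzf1* and *Myb* did not pass it, and of these only *Myb* lay toward higher values. Genes of this list other than *Lmo2* and *Nfe2* were named after their values were seen. After rescaling, 50.8% of all genes lay toward higher values. *Lmo2*, a bridging factor of the GATA1 complex, had an FPKM of 414 to 492 in *Znf143 f/f* and of 401 to 558 in *Znf143* −/− libraries.

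The list of other globins had 1 gene in the table, *Hbq1b*, a theta globin, at or under 0.434 FPKM in every library (adjusted p = 0.185 from limma).

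Of the red cell membrane list, 12 of the 17 genes in the table were tested and 1 was called. *Rhag*, the Rh-associated glycoprotein, rose from 3.29, 3.48 and 3.19 FPKM in WT1 to WT3 to 7.00, 12.5 and 15.5 in KO1 to KO3 (log2 fold change 1.71, SE 0.273, adjusted p = 0.0106 from limma). Its partner *Rhd* went the other way, with 1.93, 7.37 and 2.20 against 1.58, 0.609 and 0.960 FPKM (log2 fold change -1.596, adjusted p = 0.122 from limma), and was highest in WT2, as was *Ermap*, an erythroblast membrane protein (1.12 in WT2, 0.450 and 0.399 in WT1 and WT3, at most 0.183 in *Znf143* −/− libraries; adjusted p = 0.0747 from limma). The most abundant members were *Gypc* (49.2 to 79.9 over all libraries) and *Aqp1* (6.85 to 13.2), and both overlapped between groups.

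Of 13 heme and iron genes tested, 1 was called. *Cpox*, a late enzyme of heme synthesis, fell from 15.9, 14.8 and 15.8 FPKM to 7.45, 8.06 and 10.3 (log2 fold change -0.86, SE 0.171, adjusted p = 0.0272 from limma). *Alad* and *Urod*, earlier enzymes of that pathway and the most abundant of the list, had log2 fold changes of 0.04 and 0.08 (adjusted p = 0.899 and 0.832 from limma). The erythroid heme enzyme *Alas2*, named after its values were seen, lay at 0.103 to 0.515 FPKM.

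Of 8 genes of erythropoietin signalling, 1 was called. *Pim1*, a kinase induced by STAT5, rose from 29.9, 51.4 and 31.4 FPKM to 70.7, 110.8 and 122.98 (log2 fold change 1.44, SE 0.265, adjusted p = 0.02005 from limma). *Socs3*, a feedback inhibitor of cytokine signalling, was at 10.3, 3.57 and 10.1 against 18.3, 15.8 and 19.0 FPKM (log2 fold change 1.28, adjusted p = 0.0941 from limma). Without WT2, its lowest library, *Socs3* passed (log2 fold change 0.78, adjusted p = 0.0346 from limma). Both genes answer to other cytokines as well. Of 5 early erythroid progenitor genes, *Apoe* was called. It fell from 44.0, 33.4 and 42.0 FPKM to 20.7, 21.3 and 25.8 (log2 fold change -0.81, adjusted p = 0.0319 from limma). *Ctse*, with 66.8, 105.3 and 66.6 against 63.7, 158.2 and 167.3, overlapped between groups, as did *Prdx2*, the most abundant. None of *Rhag*, *Cpox*, *Pim1* and *Apoe* was called in the 2 against 2 fit (adjusted p = 0.165 to 0.310 from limma), and 11 to 15 of 19 alternative settings kept each call.

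**Figure D4:**
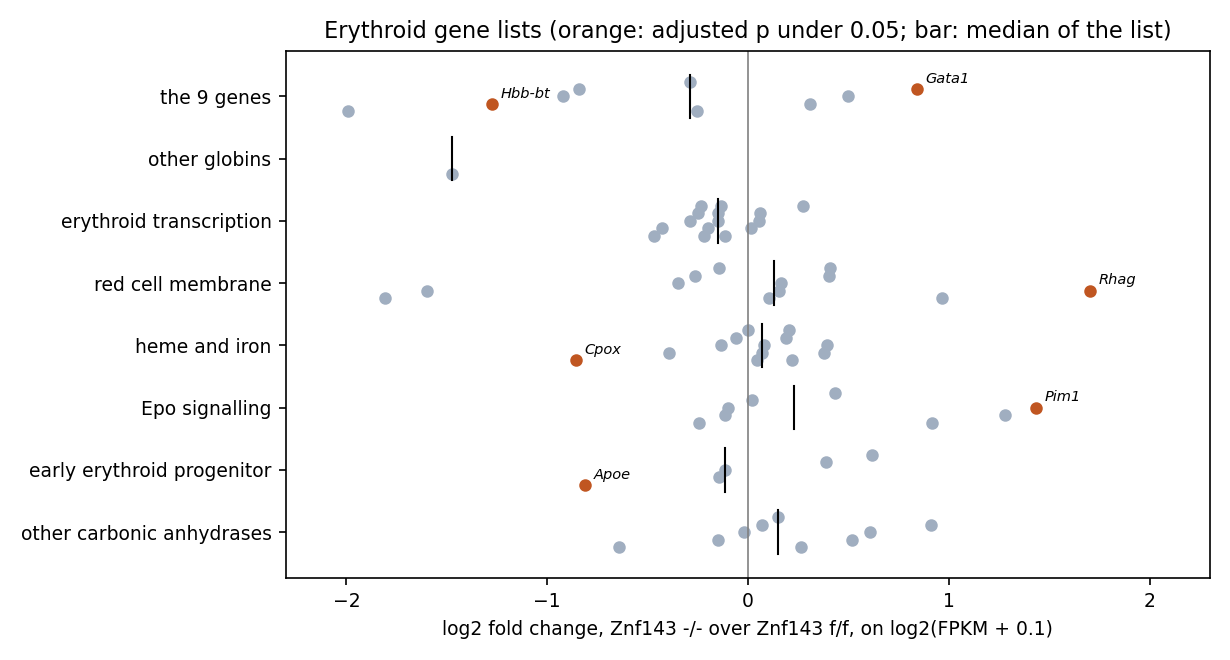
Log2 fold changes (*Znf143* −/− over *Znf143 f/f*) of the 9 genes, the 6 wider erythroid lists and the other carbonic anhydrases, 1 point a gene, orange and named where the adjusted p from limma was under 0.05, with a bar at each list's median. Called genes lie on both sides of 0, with *Rhag* at 1.71 and *Hbb-bt* at -1.27, and all 15 points of the transcription list lie between -0.47 and 0.28.

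Single libraries were compared without a test, over the 12558 genes whose FPKM averaged 1 or more. WT2 was the highest of the 6 libraries for 10.4% of these genes and for 5 of the 9: *Hba-a1*, *Hba-a2*, *Hbb-bs*, *Hbb-bt* and *Car1*. It was at least 2-fold above the next library for 0.151% of the genes (19 genes) and for 2 of the 9, *Car1* at 5.91-fold and *Hba-a2* at 3.03-fold. After rescaling these were 0.287% (36 genes) and 4 of the 9. *Hba-a1* (1.88-fold) and *Hbb-bs* (1.83-fold) followed, and *Hbb-bt* was 1.29-fold above the next library. *Gata1* and *Epor* were lowest in WT2, and *Car2* was level there.

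The 10 genes that stood out most in WT2 were *Gm36208*, *Car1*, *Gm20485*, *Mir146*, *Rhd*, *Hba-a2*, *1700054M17Rik*, *Scarletltr*, *Xlr* and *Gm26236*. *Car1*, *Rhd* and *Hba-a2* are red cell genes among them, and *Car1* took the second place. *Gm36208* had an FPKM of 7.07 in WT2 and of at most 0.786 elsewhere. By the same count, 16 genes were at least 2-fold highest in KO1 and 1 to 7 in each of WT1, WT3, KO2 and KO3, where a close partner library bounds such a gap. After rescaling, KO1 had 51 such genes, more than the 36 of WT2. WT2 was at least 2-fold lowest for 141 genes and KO1 for 60. None of the 9 genes was at least 2-fold highest in a library other than WT2.

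Markers of other cells also differed between WT2 and its group. Against the mean of WT1 and WT3, the sum in WT2 was 0.844 times for megakaryocyte, 0.702 for neutrophil, 0.738 for mast cell and basophil, 0.890 for T and NK cell, 0.798 for stem cell and 0.822 for proliferation genes, 1.07 for B cell and 1.12 for monocyte and macrophage genes. Eosinophil markers were under 1 FPKM in sum in every library. The neutrophil sum rests on *Prtn3* (225.2, 110.2 and 210.4 FPKM in WT1 to WT3). Without it the sum in WT2 was 1.70 times the mean of WT1 and WT3 (42.1, 72.6 and 43.4). *S100a8*, a neutrophil calcium-binding protein, was at 34.8 FPKM in WT2 and at 18.6 and 19.6 in WT1 and WT3. T and NK cell markers were nearly all *Nkg7*, and without it the sum in WT2 was 0.667 times. The monocyte and macrophage sum was nearly all *Cd68*, and without it WT2 was at 0.25 times (0.529, 0.145 and 0.632 FPKM in WT1 to WT3). B cell markers were nearly all *Cd79b*, and without it their sum in WT2 was 0.916 times. The wider erythroid lists summed to 0.932 times, a sum that weighs abundant genes such as *Lmo2* and *Prdx2* most. Of their 59 genes in the table, 11 were highest in WT2, as were 10.4% of genes averaging 1 FPKM or more. At least 2-fold highest there were 2 of the 59, *Rhd* and *Ermap*, against 1.06% of all genes without a filter. The part of these markers in the WT2 values was not tested. Of neutrophil markers, 7 of 10 were called higher in *Znf143* −/− cells by limma, among them *Elane* (log2 fold change 4.03), *Camp* (2.57) and *Lcn2* (2.78). Their summed FPKM was 183 to 267 in *Znf143 f/f* and 277 to 403 in *Znf143* −/− libraries, and their part in the erythroid values was not tested.

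**Figure D5:**
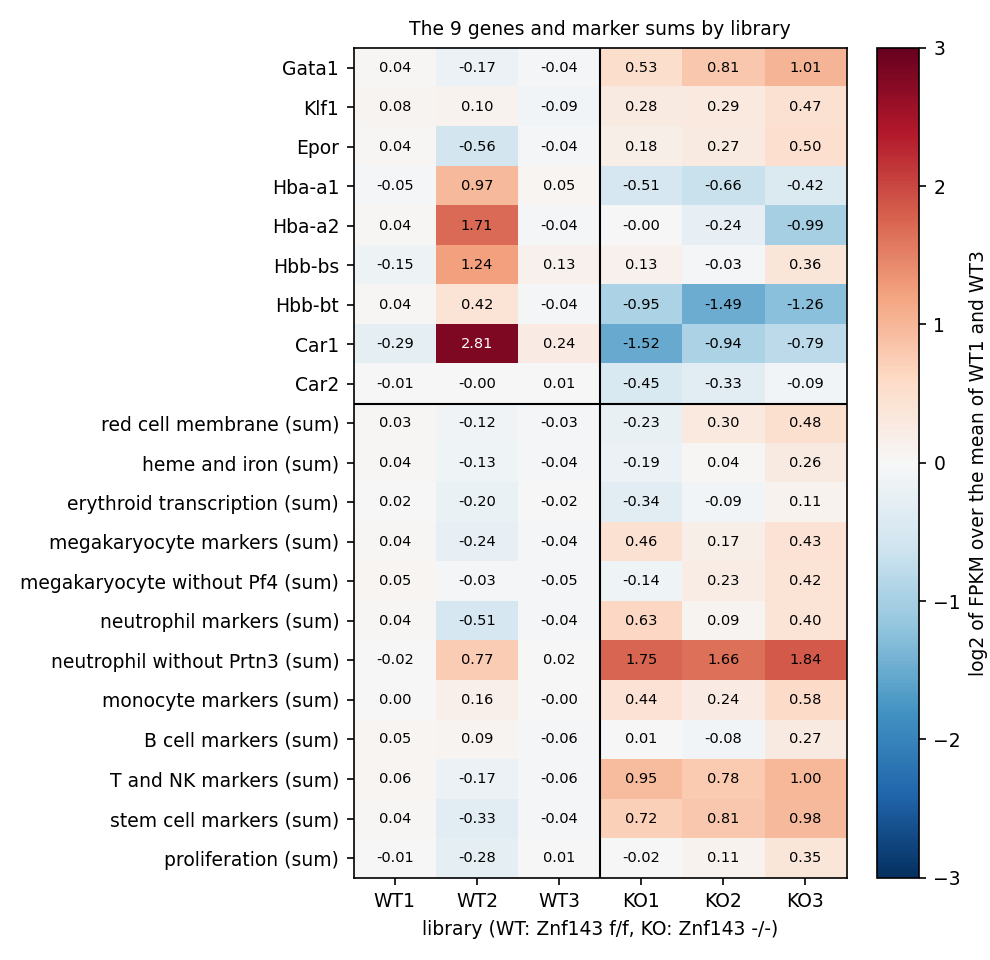
Log2 of FPKM over the mean of WT1 and WT3, for each of the 9 genes and for the summed FPKM of marker lists (rows) in each of the 6 libraries (columns), with red above and blue below that mean. In WT2, *Car1* and the 4 globin genes are red, while the whole marker sums of other cells shown are 0.702 to 1.12 times the mean of WT1 and WT3. Without *Prtn3*, the neutrophil sum there is 1.70 times that mean. The monocyte sum is nearly all *Cd68*, and the B cell sum nearly all *Cd79b*.

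The genes whose log2(FPKM + 0.1) ran most like *Car1* over the 6 libraries were *Scarletltr* (Pearson r = 0.988), *A930041C12Rik* (0.984), *Rpl13* (0.981), *Hba-a1* (0.973) and *Gm38082* (0.972). These values share the same 6 libraries and WT2 holds the extreme point of *Car1*, so they are given as a description. *Rpl13*, a ribosomal protein gene, had an FPKM of 1398 in WT2 and of 877 to 1065 in the other libraries. Among the 9 genes, r with *Car1* was 0.864 for *Hba-a2*, 0.845 for *Hbb-bs*, 0.788 for *Hbb-bt* and 0.655 for *Car2*, and it was negative for *Gata1* (-0.715), *Klf1* (-0.487) and *Epor* (-0.899). The regulators *Gata1* and *Klf1* ran together (0.903), whereas *Gata1* and *Hbb-bt* ran opposite (-0.966). Group means were not taken out and FPKM were as deposited, so every r here also holds the differences between the groups given above.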

How the data were processed

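The 6 RNA-seq libraries of HSLAM cells (3 *Znf143 f/f*, 3 *Znf143* −/−) were made with the SMART-Seq v4 and Nextera XT kits and read in pairs of 76 bases. Before deposit, TrimGalore (trimming), STAR (alignment to GRCm38) and FeatureCounts (fragments per gene) were run by the authors, who deposited the FPKM of each library with the listed gene length. Other deposited columns hold the results of their DESeq2 comparison (mean count, fold change, test statistic and p-values) and were not used. The ChIP-seq and HiC samples were not analysed here.

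Differences in log2(FPKM + 0.1) were tested for genes averaging 0.1 FPKM or more. The test was two-sided, by lmFit and eBayes (variance trend) of limma 3.58.1 under R 4.3.3, with Benjamini-Hochberg adjustment over all of them. Fold changes are on that scale, which understates those of low genes. The unit was checked by recovering fragments: FPKM times length was whole within 0.05 fragment for 99.98% of 138696 values. A count of 3 fragments on 1 kb equals 0.0555 to 0.0777 FPKM. On simulated data for this comparison (19191 genes), 188 of 200 changed genes (94%) were called, with 16 false among 204 calls. The simulated libraries were independent and equally spread, without close pairs or a divisor error. Only well-covered genes were changed, by at least 2-fold in either direction. These rates need not hold for the real libraries or for genes of few fragments such as *Hbb-bt*. Python 3.11.15, numpy 2.4.6, pandas 2.3.3 and matplotlib 3.10.9 were used. Coordinates are from GENCODE M21.

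The 9 genes and all gene lists were chosen with earlier results of these data known. Named are the 9 genes and *Zfp143*. Of the wider erythroid lists, named are genes with an adjusted p under 0.05, the 2 of highest mean FPKM in each list and those at least 2-fold higher in WT2 than in the next library. Also named are the 10 genes with the largest such gap, the 5 most like *Car1*, and called or abundant genes of marker lists. Genes named outside this rule are said to be so. Some single genes of the red cell membrane list are not reported here. *Ctcf* was added because of the labels. Replicate numbers were not used as pairs in the main fit. Alternatives were other pseudocounts, filters and scalings, voom on recovered fragments, a fit without trend, a replicate block, and each library left out. Averaging close libraries and leaving the most abundant gene out of each marker sum were added after the data were seen.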

Additional observations from a re-analysis of the deposited data

How the results depend on the processing

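Of the 9 genes, 2 were called as reported. The number was 4 with rescaling and no WT2, 0 with the replicate block and rescaling, 1 without the variance trend, 0 with close libraries averaged (2 against 2, with or without rescaling), and 0 to 3 with each library left out. Of the wider erythroid lists, 4 genes were called as reported, 9 with rescaling and no WT2, 1 without the variance trend, 0 with close libraries averaged, and 0 to 6 with each library left out. The log2 fold change of *Hbb-bs*, -0.25 as reported, ran from -0.53 to 0.16 with each library left out, positive without WT2 alone, and was 0.088 with rescaling and no WT2. The causes were not tested. Of the other values of the 9 genes over 19 alternatives, 147 kept direction and call, 16 lost the call and 6 gained it, all in the same direction. The number of all genes called was 833, of them 63.5% higher. It was 1157 (50.1% higher) after rescaling, 996 (54.1%) with KO3 divided by its own total, 1401 (46.9%) with voom, 191 with block and rescaling together, 87 and 47 with close libraries averaged, and 190 to 1476 with each library left out. With the replicate number as a block, 864 genes, 2 of the 9 (*Hbb-bt* and *Car1*, with *Gata1* lost at an adjusted p of 0.0506 in limma) and 5 of the lists were called, but the numbers do not pair the samples (correlations of deviations between same-numbered libraries of -0.0961, -0.0909 and 0.0311). Genes at least 2-fold highest in WT2 were 0.151% as reported, 0.0876% with a pseudocount of 1, 0.287% after rescaling and 1.06% without a filter. *Hba-a2* and *Hbb-bt* rest on 22 to 160 fragments a library, where small changes were not detectable.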
